A study of Ziziphus jujuba with 15 samples.

Results

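Heat stress for 7 d was compared with the control treatment (0 d) in leaves of jujube (Ziziphus jujuba), over all 32876 genes of the deposited table, of which 19925 were tested because at least 3 libraries among the 15 of the series reached an FPKM of 1. The plants were seedlings of ‘HS’ (HS-Haoqing1), the heat-sensitive cultivar of the study, raised as rooted cuttings and thus 1 genotype, and exposed to 45 °C. By the methods of the paper the heat was given for 14 hours of each day, and the hour of sampling is not stated. The comparison used 3 libraries at 7 d and 3 at 0 d, each group with replicates a, b and c, and 3 libraries at each of 1, 3 and 5 d shared in the estimate of the spread. All libraries carry the same treatment label, heat stress, and 0 d stands for leaves taken before it. No unheated plants of day 7 are among these libraries, so 7 days of heat and 7 days of further growth cannot be told apart. The methods of the paper describe treatments of up to 5 d, so the treatment and sampling at 7 d are known from the labels alone. These speak of RNA pooled from replicates, and what separates replicates a, b and c was not settled, so p-values measure the spread between these libraries, which may be in part technical.

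Leaves that are heated lose protein folding, and heat stress transcription factors (HSFs) then switch on genes of heat shock proteins (HSPs). HSP70 and HSP90 refold or hold client proteins, small HSPs bind unfolded proteins, and proteins of the ClpB type pull them out of aggregates. Prolonged heat is also known to lower carbon fixation and growth in leaves, and hormones such as jasmonate, ethylene and abscisic acid take part in the stress response.

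Expression is given as FPKM, fragments scaled to transcript length and to the mapped fragments of a library, so levels can be compared between genes. Values of single libraries are listed in the order of replicates a, b and c. By the smallest steps between FPKM values of low genes, the depths of the 7 d libraries were 0.978, 0.961 and 1.04 times that of 0 d replicate a, and those of 0 d replicates b and c were 0.96 and 1 times. The median FPKM of genes above 0 was 4.94 ± 0.33 at 7 d and 4.72 ± 0.288 at 0 d (exact permutation test, two-sided, p = 0.4, n = 3 against 3). The number of genes at an FPKM of 1 or more was 17993 ± 538 and 17762 ± 327 (exact p = 0.6), and the 100 most abundant genes held 26.9 ± 1.82 and 25.7 ± 1.72 percent of the summed FPKM (exact p = 0.5). With 3 against 3 libraries this test cannot give a p below 0.10.

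One library stood apart and bears on much of what follows. Across the genes tested, Pearson’s r on log2(FPKM + 1) between replicates b and c at 7 d was 0.966, whereas replicate a at 7 d correlated at 0.906 to 0.909 with them and at 0.926 to 0.934 with the libraries at 5 d. In 7 d replicate a, 1924 genes lay 2-fold or more from both other replicates on the log2(FPKM + 1) scale, against 292 for replicate b and 322 for replicate c. Replicate a was the most distant at the other time points as well, with 937 to 1324 genes. The sample tags in the labels number the a libraries apart from the b and c libraries, and what the tags stand for is not stated. Where leaving out 7 d replicate a ended the call of a named gene against 0 d, or moved a fold change given here by more than 1.5 times, the log2 fold change without it is added, unless the gene then failed the filter on low FPKM.

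**Figure D1:**
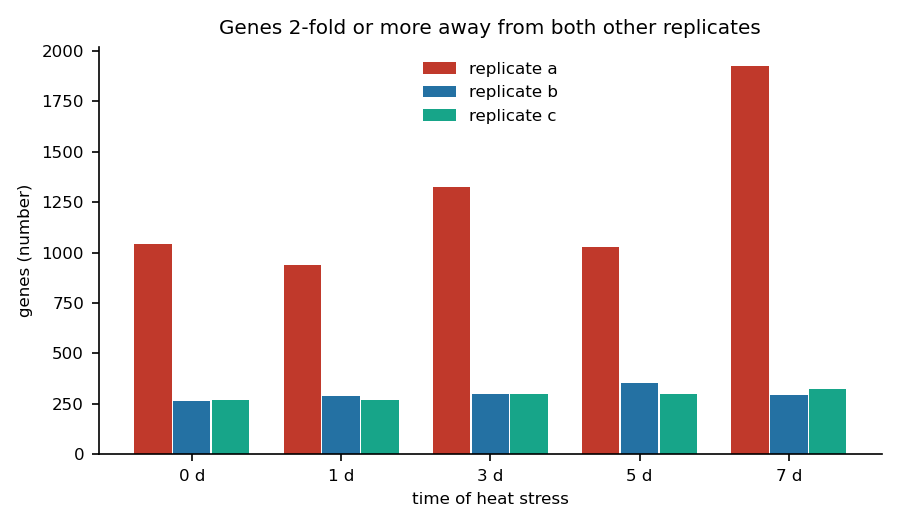
Number of genes (vertical axis) whose log2(FPKM + 1) lay 1 or more from both other replicates of the same time point, for each of the 15 libraries. Replicate a at 7 d reached 1924 genes, more than any other library, and replicates b and c stayed between 265 and 354 at every time point.

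Of the 19925 genes tested, 1796 (9.01%) were differentially expressed genes (DEGs) at 7 d, defined by a limma adjusted p of 0.01 or less (Benjamini-Hochberg) and a fold change of 2 or more on the log2(FPKM + 1) scale, which understates changes of genes with low FPKM. Higher at 7 d were 824 (4.14%) and lower 972 (4.88%). With a pseudocount of 0.1 in place of 1, the higher genes were the more numerous, with 1202 higher and 998 lower. The median log2 fold change was 1.33 among the higher and -1.39 among the lower DEGs, and 151 and 163 of them changed 4-fold or more. At 16-fold or more, 17 genes were higher and 5 lower. In every DEG the 3 libraries at 7 d lay outside the range of the 3 at 0 d, as they did in 46.9% of all genes tested. Genes newly discovered by the authors made up 141 of the DEGs (7.9% of the 1784 tested). Without 7 d replicate a, 1769 genes (8.91%) were called, 968 higher (4.88%) and 801 lower (4.04%), and 1356 of them were among the 1796 (645 higher and 711 lower). Of the 1796, 959 were called in all 6 fits that left out 1 library of the comparison. With only replicates b and c at every time point 2366 genes were called, whereas with a and c it was 52 and with a and b it was 24, again at every time point.

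Protein descriptions were available for 1154 of the genes tested, nearly all from the study’s tables of genes called in ‘HR’, the heat-resistant cultivar, whose libraries were not used here. Of these, 334 (28.9%) were DEGs in ‘HS’ at 7 d, 262 higher and 72 lower. That share stands above the 9.01% of all genes, but the tables list genes that respond to heat in the other cultivar, so it is no measure of the named groups. As read here the tables gave 1244 genes, fewer than the DEGs reported in the paper. Genes without a description here may thus have one in the study, and rankings of described genes hold among those read. Counts of the lists below stand beside 4.14% higher and 4.88% lower among all genes tested. All lists stand also beside the 262 higher and 72 lower of the 1154 described genes, since pathway and Gene Ontology lists too hold genes called in ‘HR’. Of 49 lists of genes, 9 held only higher DEGs, 7 only lower DEGs, 31 both and 2 none. The lists taken from pathway and Gene Ontology tables hold genes called in ‘HR’, not all genes of a pathway, and 5 of them were read from shortened tables.

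Of 18 large chaperones and co-chaperones tested, 10 were higher and 0 lower, beside 4.14% higher and 4.88% lower among all genes. These members too were described mostly from genes called in ‘HR’, of which 28.9% were DEGs here in either direction. They were at a median log2 change of 1.51 against 0.04 over all genes, and 7 to 11 were higher with 1 library left out. The largest rise of any described gene was that of heat shock protein 83 (LOC107430166), a cytosolic HSP90. Its FPKM was 0.621, 0.387 and 0.349 at 0 d and 271, 34 and 31 at 7 d, a log2 fold change of 5.54 (SE 0.59, limma adjusted p = 4.8e-05). All 3 libraries at 7 d were far above 0 d, and replicate a was far above b and c. At 5 d its FPKM had been 120.2 ± 9.16 (SD, n = 3), above replicates b and c at 7 d and below replicate a. Without 7 d replicate a the log2 fold change was 4.53 (limma adjusted p = 1.8e-07).

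The HSP70 genes, whose products bind exposed hydrophobic stretches of client proteins, had the same pattern of one high library. The gene described as heat shock 70 kDa protein (LOC107406481) was at 0.602, 0.919 and 0.823 at 0 d and 124, 10.4 and 10.1 at 7 d (log2 fold change 3.82, SE 0.84, limma adjusted p = 0.0043). The heat shock cognate 70 kDa protein (LOC107405906), numbered next to it in the annotation and with which it may share reads, was at 0.149, 0.101 and 0.246 and 33.1, 5.02 and 6.45 (log2 fold change 3.31). For heat shock 70 kDa protein 8 (LOC107423197) the values were 1.5, 4.53 and 2.54 and 68.8, 16.5 and 16.6 (log2 fold change 2.93). In all 3 genes, as in every DEG, the groups did not overlap, and replicate a was far above b and c at 7 d. Without that library the log2 fold changes were 2.66, 2.52 and 2.26, and all 3 remained DEGs. LOC107406481 was at 4.41 without 7 d replicate c, and was not called when any 1 of the 0 d libraries was left out.

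The disaggregase ClpB1 (LOC107419106) was at 5.23, 8.67 and 8.1 at 0 d and 66, 17.8 and 16.9 at 7 d (log2 fold change 1.79, SE 0.40, limma adjusted p = 0.0047; 1.16 without 7 d replicate a). It was not called when any 1 of the 0 d libraries was left out. Of the mitochondrial ClpB4 genes, LOC107420312 rose by 1.10 on the log2 scale and was no longer a DEG without 7 d replicate a (0.74), and LOC107422833 (0.85, limma adjusted p = 0.028) did not pass. Hsp70-Hsp90 organizing protein 3 (LOC107419715), which passes clients from HSP70 to HSP90, rose more evenly, from 2.15, 2.64 and 1.68 to 8.48, 7.37 and 5.65 (log2 fold change 1.37). A 10 kDa chaperonin (LOC107431513), the lid of organellar folding chambers, went from 1.45, 0.561 and 1.1 to 6.2, 4.33 and 5.35 (log2 fold change 1.64), with little difference between the replicates. FKBP62 (LOC107426533), a peptidyl-prolyl isomerase that works with HSP90, rose by 1.38. FKBP65 (LOC107421930) had a larger log2 fold change of 1.94, but with 129, 18.8 and 18.5 at 7 d it did not pass (limma adjusted p = 0.015), whereas without 7 d replicate a it did, at 1.03 (limma adjusted p = 0.0014).

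The J-domain proteins, which stimulate HSP70, did not pass the thresholds. Their log2 fold changes were 1.73 for dnaJ 3 (LOC107425032), 1.36 for chloroplastic dnaJ 11 (LOC107427541), 0.95 for dnaJ 6 (LOC107429319) and 0.71 for dnaJ 10 (LOC107423466). The first of these was at 5.81, 5.35 and 6.19 at 0 d and 93.8, 12.6 and 7.88 at 7 d, with replicate a far above b and c (0.70 without 7 d replicate a). For dnaJ 11 the order was the opposite, with 40.1, 65.1 and 65.5 at 7 d, and without 7 d replicate a it was a DEG (1.59). Mitochondrial BAG regulator 5 (LOC107417637) was at 0.751, 1.25 and 0.865 and 22.2, 0.737 and 1.13, and its replicates b and c lay in or just below the range at 0 d (log2 fold change 1.18, and -0.02 without 7 d replicate a). A second FKBP62 gene (LOC107418067) differed by 0.49.

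BAG family molecular chaperone regulator 6 (LOC107423735), a calmodulin-binding co-chaperone, had 7 d replicates of similar level. It was at 5.61, 4.57 and 4.86 at 0 d and 181, 261 and 258 at 7 d, with replicate a lowest of the 3. The log2 fold change of 5.27 (SE 0.29, limma adjusted p = 5.1e-07) was the second largest among described genes, and without 7 d replicate a it was 5.44. Its FPKM at 5 d was 218 ± 109 (SD, n = 3), a mean that lay between the lowest and highest library at 7 d.

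**Figure D2:**
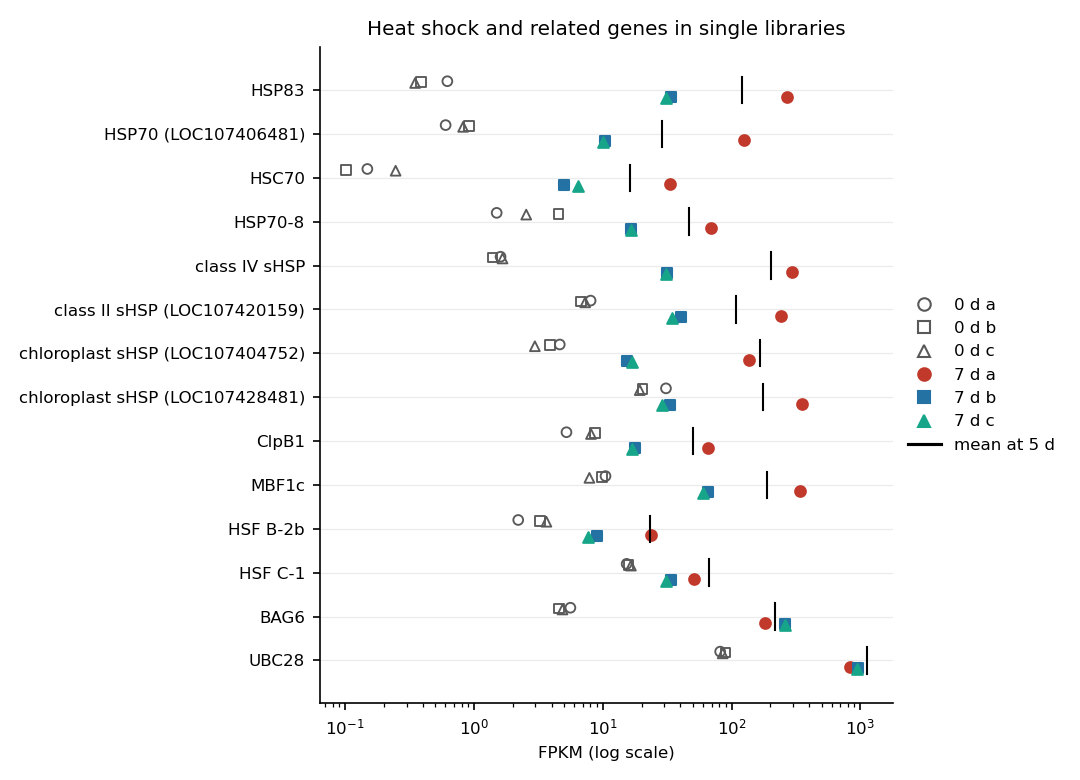
FPKM on a log axis of 14 heat shock and related genes in each library at 0 d (open symbols) and 7 d (filled symbols), with the mean at 5 d as a vertical bar. In the chaperone genes the red point of 7 d replicate a lies right of replicates b and c, which are 271, 34 and 31 for HSP83, whereas in BAG6 and UBC28 the 3 replicates lie together.

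Small HSPs showed the division of the 7 d libraries clearly. Of 8 genes described here as small HSPs, 7 passed the filter on low FPKM and 3 were DEGs, all higher. The median log2 change of the members tested was 1.57 and, without 7 d replicate a, 0.68. The paper names further small HSPs that are not in this list, so these counts cover a part of the family. The class IV protein (LOC107424261), of the endoplasmic reticulum class, was at 1.61, 1.39 and 1.67 at 0 d and 293, 31.7 and 30.7 at 7 d (log2 fold change 4.72, SE 0.63, limma adjusted p = 0.00019). The cytosolic class II protein (LOC107420159) was at 8.04, 6.79 and 7.3 and 242, 40.8 and 34.3 (log2 fold change 3.09). In both, all 7 d libraries were above 0 d, and replicates b and c were below the 5 d means of 202 ± 30.1 (SD, n = 3) and 108 ± 0.332 (SD, n = 3). Without 7 d replicate a the log2 fold changes were 3.66 and 2.20, and both remained DEGs.

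Of the 2 chloroplastic small HSPs in this list, a class known to protect the photosystems, 1 was a DEG. LOC107404752 rose from 4.63, 3.88 and 2.97 to 138, 15.5 and 16.8 (log2 fold change 2.85, limma adjusted p = 0.0038; without 7 d replicate a 1.84). LOC107428481 was at 31, 20.4 and 19.4 at 0 d and 355, 33.1 and 29 at 7 d, which did not pass (log2 fold change 1.57, limma adjusted p = 0.096; without 7 d replicate a 0.41). In the latter, replicates b and c at 7 d were close to 0 d replicate a, and the groups overlapped. The difference between the 2 genes was not tested.

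The other small HSPs of the list stayed below the thresholds. Another class II gene (LOC107420073) was listed at 0 in all libraries at 0 d and at 4.95, 0.644 and 0.565 at 7 d, and did not pass with or without 7 d replicate a. The adjacent gene (LOC107420074) was too low to be tested. These class II genes lie next to LOC107420159 in the RefSeq annotation and may share reads with it. The class III gene (LOC107435148) was at 28.3, 8.77 and 4.81 at 7 d against 5.27, 7.32 and 6.71 at 0 d (log2 fold change 0.68, and 0.03 without 7 d replicate a). The class V gene (LOC107419886) was the only one with a negative log2 fold change, with 67.3, 83 and 81.5 at 0 d and 19.6, 52.3 and 50.1 at 7 d (log2 fold change -1.02, limma adjusted p = 0.017), and its lowest value was that of replicate a.

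Set against the mean of b and c, replicate a at 7 d was higher by a median of 2.66 on the log2 scale over the 7 small HSPs, by 1.08 over the large chaperones and by 0.92 over the 33 genes listed for response to heat, while the median over all genes tested was -0.14. At 5 d the same medians were -0.0025, -0.11 and -0.10. The 1 d medians, 0.53, 0.39 and 0.24 in that order, were positive as well but smaller than those of 7 d. For 3 d the small HSPs had 0.35, the large chaperones -0.26 and the response to heat list -0.10. Before heat the values were 0.046, -0.0083 and 0. At 7 d, 6 of 7 small HSPs and 10 of 18 large chaperones were 2-fold or more higher in replicate a than the mean of b and c. Over all genes tested, 3.18% lay 2-fold or more above both b and c there, which is a stricter rule, so the shares are not of the same measure. The relative depth read from low FPKM values was 0.978 for replicate a, 0.961 for b and 1.04 for c. What separates these libraries was not tested.

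Among HSFs and the regulators grouped with them, 10 of 12 genes were tested, 3 were higher and 1 lower, and 1 to 4 were higher with 1 library left out. Multiprotein-bridging factor 1c (LOC107431864), a transcriptional coactivator of the heat response, was at 10.5, 9.93 and 7.88 at 0 d and 339.5, 66.2 and 60.5 at 7 d (log2 fold change 3.43, SE 0.48, limma adjusted p = 0.00027), and without 7 d replicate a the log2 fold change was 2.63. HSF B-2b (LOC107429964), of the class that lacks the activation domain of class A factors, was at 2.21, 3.27 and 3.65 and 23.8, 9 and 7.64 (log2 fold change 1.69). HSF C-1 (LOC107431837) was at 15.3, 15.8 and 16.5 and 51.1, 34 and 31.1 (log2 fold change 1.20) and, at 0.99, was not a DEG without 7 d replicate a. All 3 genes had replicate a highest at 7 d and, like every DEG, no overlap between the groups.

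One of the genes for dehydration-responsive element-binding protein 2A (DREB2A), an activator placed upstream of HSF genes in Arabidopsis, moved the other way. LOC107406487 fell from 6.8, 5.67 and 8.69 to 2.85, 2.02 and 1.82 (log2 fold change -1.31, limma adjusted p = 0.0018), while the other copy (LOC107405802) had a log2 fold change of 0.53 and did not pass. Of the class A factors, HSF30 (LOC107420051) was at 5.16, 6.89 and 7.04 and 32.9, 11.8 and 10.8 (log2 fold change 1.24, limma adjusted p = 0.013), the second HSF30 gene (LOC107424074) had 0.59 and HSF A-5 (LOC107406373), listed at 0 in 1 of the 0 d libraries, had 1.28. HSF24 (LOC107424801, 0.66) and HSF B-2a (LOC107414457, 0.98) did not pass either. A newly discovered HSF C-1 transcript was at or near 0 in these libraries and was not tested.

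Chaperone genes recur in the list for protein processing in the endoplasmic reticulum, where 18 of 56 genes were higher and 2 lower, 3 of the higher ones being large chaperones and 3 small HSPs counted above. With 1 library left out, 13 to 20 were higher. The list for response to heat had 9 higher and 1 lower of 33, and 7 to 14 were higher with 1 library left out. For response to hydrogen peroxide 5 of 12 were higher and none lower, and 4 of the 5 stand also in the response to heat list. All of these lists hold genes called in ‘HR’, and among described genes, mostly from ‘HR’ too, 262 of 1154 were higher. In each comparison with the same 0 d libraries, the response to heat list had 7, 15 and 21 higher genes at 1, 3 and 5 d, where 4.49%, 7.53% and 9.28% of all genes tested were higher, with medians of 0.88, 1.25 and 1.50, beside 9 and 1.04 at 7 d.

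Protein turnover was marked by 1 abundant gene. Ubiquitin-conjugating enzyme E2 28 (UBC28, LOC107431489), which hands ubiquitin to substrate ligases, was at 81.6, 89.7 and 85.4 at 0 d and 836, 953 and 945 at 7 d, a log2 fold change of 3.40 (SE 0.12, limma adjusted p = 1.7e-08). Its replicates were close in both groups. The list of ubiquitin ligases and related proteins does not hold UBC28. Of its 24 genes tested, 4 were higher and 3 lower, and the share of higher genes was below that among described genes, 262 of 1154. RMA1H1 (LOC107403709), a membrane-bound RING ligase, rose by 2.45 and U-box protein 4 (LOC107433738) by 1.75, whereas RING1-like (LOC107419658) and U-box protein 11 (LOC107418223) fell, with log2 fold changes of -1.66 and -1.48. Of 10 proteasome genes none was higher and 4 were lower, with a median of -0.93 and 2 to 6 lower ones when 1 library was left out.

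Genes of antioxidant enzymes went both ways. Cytosolic L-ascorbate peroxidase 2 (LOC107432898), which removes hydrogen peroxide, was at 4.95, 8.58 and 7.9 at 0 d and 72.1, 37.2 and 36.4 at 7 d (log2 fold change 2.56, SE 0.29, limma adjusted p = 7.1e-05). Peroxidase 4 (LOC107405097) was at 29.3, 26.7 and 23.8 and 77.1, 93 and 95.7 (log2 fold change 1.70). The abundant peroxidase 42 (LOC107420772) fell from 869, 1403 and 1282 to 534, 413 and 434 (log2 fold change -1.34). An L-gulonolactone oxidase-like gene (LOC107423857), of a family linked to ascorbate synthesis, was among the 4 largest described rises, from 1.06, 4.39 and 3.1 to 69.7, 93.6 and 102 (log2 fold change 4.63, SE 0.52), and here replicate a was the lowest at 7 d.

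Ethylene-responsive transcription factors (ERFs) included 7 higher and 2 lower DEGs of 22 tested, and 6 and 1 without 7 d replicate a. The 4 largest changes among these DEGs were all in genes described as ERF4, a repressor of ethylene responses in Arabidopsis. The first (LOC107432496) was at 7.3, 12.7 and 12.2 at 0 d and 346, 111 and 101 at 7 d (log2 fold change 3.79, SE 0.41, limma adjusted p = 4.9e-05). The others were LOC107417413 (3.33, and 2.55 without 7 d replicate a), LOC107432572 (2.41) and LOC107425282 (2.24). LOC107432572 is numbered close to the first in the annotation, may share reads with it, and was not a DEG without 7 d replicate a (1.81). All 4 were highest in replicate a.

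The 5 d means of these ERF4 genes, 32.7, 11.7, 9.83 and 10.6, were below every 7 d library, but none was called in the direct comparison of 7 d with 5 d. RAP2-4 (LOC107408332) rose from 40.6, 43.6 and 48.7 to 377, 138 and 139.7 (log2 fold change 2.11), and RAP2-12 (LOC107435298), a sensor of low oxygen in Arabidopsis, fell from 500.2, 507 and 491 to 183, 261 and 240.2 (log2 fold change -1.14) but was at -0.99, below the fold threshold, without 7 d replicate a. A 1-aminocyclopropane-1-carboxylate synthase (LOC107430205), the enzyme that makes the ethylene precursor, was at 0.0798, 0.0967 and 0 at 0 d and 1.14, 4.55 and 3.34 at 7 d (log2 fold change 1.81). This gene was picked after its values were seen, and without 7 d replicate a it did not pass the filter on low FPKM.

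Among jasmonate genes the order of the replicates varied. Of 9 genes 5 were higher and 1 lower, and 3 to 5 were higher with 1 library left out. The 2 genes of TIFY 10A, a jasmonate-induced repressor (JAZ), were at 20.4, 11.8 and 11.2 (LOC107423911, log2 fold change 2.48) and 27.7, 14.1 and 11.9 (LOC107404981, 2.39) at 7 d, against 0.634, 2.95 and 1.99 and 2.85, 1.92 and 2.44 at 0 d. 12-oxophytodienoate reductase 3 (OPR3, LOC107423913), an enzyme of jasmonate synthesis, was at 0.297, 0.311 and 0.175 at 0 d and 0.636, 9.67 and 9.31 at 7 d (log2 fold change 2.16, SE 0.53, limma adjusted p = 0.008). Here replicates b and c were high and replicate a was only just above 0 d, and without it the log2 fold change was 3.06. When any other 1 of the 6 libraries was left out, OPR3 was not called. In the TIFY 10A genes replicate a was the highest. TIFY 9 (LOC107435244) had the order of OPR3, from 0.186, 0.155 and 0.418 to 1.05, 5.54 and 4.35 (log2 fold change 1.74), and TIFY 6B (LOC107419347) fell (-1.16) and was not a DEG without 7 d replicate a (-0.86).

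WRKY factors, which act in defence and senescence, included genes with the same order as OPR3. WRKY41 (LOC107430000) was at 6.57, 8.08 and 9.98 at 0 d and 19.9, 68.1 and 69.6 at 7 d (log2 fold change 2.36, SE 0.42, limma adjusted p = 0.0011), and WRKY75 (LOC107428282) at 2.55, 5.09 and 3.03 and 7.55, 17.3 and 18.7 (log2 fold change 1.71). WRKY44 (LOC107432867) fell from 6, 4.85 and 4.73 to 1.76, 2.77 and 1.6 (log2 fold change -1.04) and was not a DEG without 7 d replicate a (-0.98). Of the 8 WRKY genes tested 2 were higher and 1 lower, and without 7 d replicate a it was 4 and 0. MLP-like protein 43 (LOC107429316), of the family of major latex proteins, was likewise highest in b and c, at 0.773, 2.16 and 1.56 and 15.3, 79.8 and 80.6 (log2 fold change 4.29, and 5.06 without 7 d replicate a).

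Among disease resistance proteins 2 of 20 were higher and 1 lower, and 4 and 1 without 7 d replicate a. With all libraries the share of higher genes was below that among described genes, 262 of 1154. An RPP13-like gene (LOC107417811) was listed at 0 in every 0 d library and was at 2.61, 5.72 and 5.89 at 7 d. A second RPP13-like gene (LOC107417772) rose by 1.65 on the log2 scale, and receptor-like protein 12 (LOC107427874) fell from 55.8, 101 and 120.0 to 17.8, 13 and 32 (log2 fold change -2.11).

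**Figure D3:**
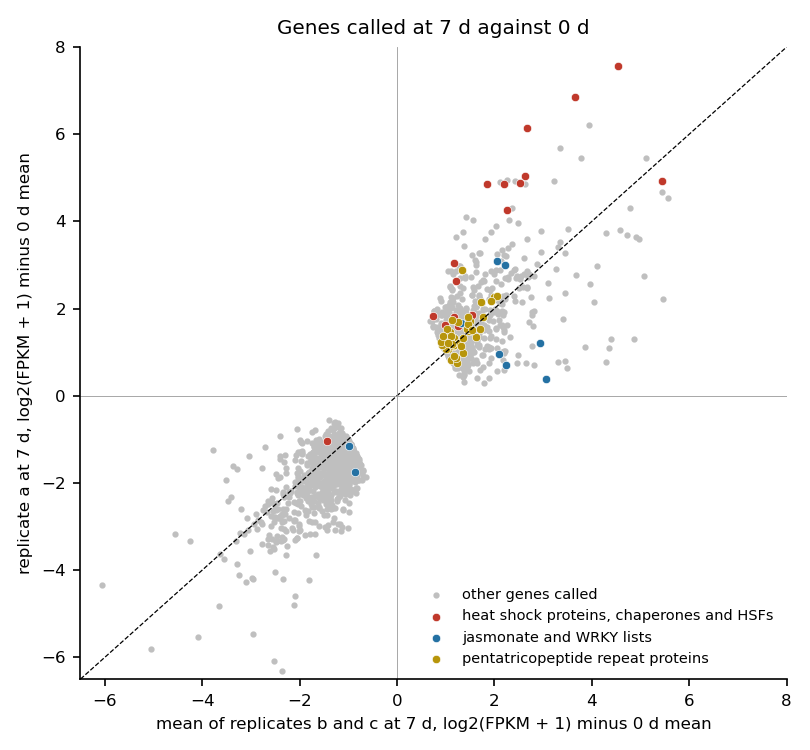
Each point is 1 of the 1796 DEGs, placed by the difference from the 0 d mean on the log2(FPKM + 1) scale in 7 d replicate a (vertical) and in the mean of replicates b and c (horizontal), which share the 0 d mean. Heat shock genes lie mostly above the dashed line of equality, whereas OPR3, TIFY 9 and the WRKY genes that rose lie below it and pentatricopeptide repeat genes lie around it.

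The calls among abscisic acid and dehydration genes were lost without replicate a. Of 20 tested 4 were higher and none lower, a share of higher genes not above the 262 of 1154 among described genes. Without 7 d replicate a none was called. The homeobox factor ATHB-7 (LOC107423690), induced by abscisic acid in Arabidopsis, was at 7.58, 6.15 and 6.59 at 0 d and 126, 21.6 and 22.4 at 7 d (log2 fold change 2.39, limma adjusted p = 0.0081; 1.57 without 7 d replicate a). The 2 abscisic stress ripening genes, LOC107421702 and LOC107421693, which are numbered close together and may share reads, rose by 1.21 and 1.47, and AFP2 (LOC107429065), a repressor of abscisic acid signalling, by 1.24. Without 7 d replicate a the log2 fold changes of the last 3 were 0.81, 1.13 and 0.93. Over the list, replicate a exceeded the mean of b and c by a median of 0.98 on the log2 scale. For response to water deprivation the calls were mixed, with 5 higher and 4 lower of 36, and 3 and 6 without 7 d replicate a.

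NAC factors had 3 higher of 10 and none lower. NAC2 (LOC107421097) rose evenly from 48.2, 47.6 and 44.6 to 162, 147 and 142 (log2 fold change 1.66, SE 0.20, limma adjusted p = 8.5e-05), NAC100 (LOC107419222) rose by 1.53, and NAC72 (LOC107406551) rose by 2.65 but was not a DEG without 7 d replicate a (2.28). MYB1R1 (LOC107430316), a drought-related MYB factor in potato, was at 29.2, 30.6 and 32 at 0 d and 145, 147 and 143 at 7 d (log2 fold change 2.21, limma adjusted p = 5.9e-07). It was the 1 higher MYB gene of 15, and RADIALIS-like 6 (LOC107420262) the 1 lower (-1.28), which was not a DEG without 7 d replicate a (-1.09). TCP15 (LOC107419280), a regulator of cell proliferation in leaves, went from near 0 (0.016, 0.0153 and 0.00782) to 13.1, 23.6 and 23 (log2 fold change 4.32, SE 0.20, limma adjusted p = 2e-07). Protein gamma response 1 (LOC107423807), described from a gene induced by gamma radiation, rose from 0.782, 0.162 and 0.266 to 14.9, 14 and 12.1 (log2 fold change 3.41).

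Gibberellin and cytokinin genes gave 2 higher DEGs of 14 and none lower, a smaller share of higher ones than the 262 of 1154 described genes. The 2 DEGs were a gibberellin 2-beta-dioxygenase (LOC107404192, 1.17), of the family that inactivates gibberellins, and the response regulator ARR12 (LOC107420356, 1.09). ARR12 carries cytokinin signals to transcription and was not a DEG without 7 d replicate a (0.93). Of 65 genes for hormone signal transduction 7 were higher and 9 lower, and 5 and 5 without 7 d replicate a.

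Photosystem and antenna genes were among the most abundant genes at 7 d. Of 15 genes 3 were higher and 1 lower than at 0 d. Described genes had a larger share of higher ones, 262 of 1154. Oxygen-evolving enhancer protein 3-2 (LOC107421293), which stabilises the water-splitting complex of photosystem II, was at 1016, 1861 and 953 at 0 d and 3794, 4107 and 3626 at 7 d (log2 fold change 1.66, SE 0.32, limma adjusted p = 0.002). The antenna protein CP29 (LOC107430831) was at 2878, 2386 and 2279 and 6429, 5838 and 5077 (log2 fold change 1.20), and subunit IV of photosystem I (LOC107417894) at 101, 79.4 and 76.8 and 208, 177 and 185 (log2 fold change 1.15). In all 3 genes, as in every DEG, the groups did not overlap. Photosystem II 10 kDa polypeptide (LOC107423325), among the 3 most abundant described genes at 7 d, had a log2 fold change of 0.70 and did not pass. PsbP domain-containing protein 3 (LOC107419831), a protein of the thylakoid lumen, fell from 64.8, 60.3 and 61.5 to 15.1, 20.1 and 16 (log2 fold change -1.82, SE 0.17, limma adjusted p = 2.4e-05).

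The summed FPKM of 12 photosystem, antenna and related leaf markers was 12111 to 17570.5 at 0 d and 23038 to 28596 at 7 d, and none of them was at 0. Of the markers of other organs, the 4 genes of seed or embryo summed to 51.8 to 58.2 and 50.3 to 67.7, with oleosin listed at 0 in every 0 d library. Among the 3 of them tested 1 was a lower DEG, from 14.2, 15.3 and 15.5 to 1.66, 7.79 and 5.33 (log2 fold change -1.60). The 3 vascular genes summed to 16.4 to 24.2 and 8.95 to 19.7 with none called, and the 1 gene of the pollen list, SF21 (LOC107420081), fell from 17.6, 18.9 and 19.6 to 2.59, 4.03 and 3.29 (log2 fold change -2.21). The part of such cells in the results was not tested, and fewer cells of a type and less RNA per cell cannot be told apart in bulk leaves.

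Of 34 genes listed for carbon fixation none was higher and 12 were lower, beside 4.88% lower among all genes. Like the other pathway lists, this one holds genes called in ‘HR’. The median log2 fold change was -0.83, against 0.04 over all genes, and 10 to 12 were lower with 1 library left out. NADP-dependent malic enzyme (LOC107420388), which releases CO2 from malate, fell from 40.3, 60.3 and 66.7 to 16.3, 15.7 and 16.1 (log2 fold change -1.70, SE 0.17, limma adjusted p = 2.9e-05), with replicates that lay together. The other lower genes of the list have no description among those read here. For glycolysis and gluconeogenesis 1 of 53 was higher and 11 were lower (7 without 7 d replicate a). These 11 include 5 of the 12 lower genes of carbon fixation, so the 2 lists are not separate counts. For starch and sucrose 6 were higher and 10 lower of 62, with 3 to 6 higher and 6 to 11 lower when 1 library was left out. Of 21 genes for oxidative phosphorylation 6 were lower and none higher, but without 7 d replicate a 1 was.

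The citrate cycle list had 1 higher gene, mitochondrial aconitate hydratase 2 (LOC107433052), which converts citrate to isocitrate, and 4 lower of 18 (2 and 3 without 7 d replicate a). Its 4 lower genes include 3 counted for carbon fixation and 2 counted for glycolysis and gluconeogenesis. The FPKM of the aconitate hydratase gene was 2.55, 1.3 and 1.6 at 0 d and 29.9, 12.8 and 13.6 at 7 d (log2 fold change 2.73, SE 0.27, limma adjusted p = 2.7e-05). A glutamine synthetase (LOC107419571), which assimilates ammonium, fell from 56, 88.4 and 81.1 to 9.12, 33.2 and 25.7 (log2 fold change -1.83). Of 18 genes listed for water transport 7 were lower and none higher (median -0.88), and of 14 for circadian rhythm 5 were lower and none higher, beside 4.88% lower among all genes. Both lists hold genes called in ‘HR’.

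The DEGs among flavonoid genes were mostly lower, with 8 lower and 1 higher of 21 in the biosynthesis list, beside 4.88% and 4.14% of all genes. This list too holds genes called in ‘HR’. Flavonoid 3'-monooxygenase (LOC107419096), which hydroxylates the B ring, fell from 26.6, 87.8 and 75 to 7.68, 7 and 6.29 (log2 fold change -2.84, SE 0.42, limma adjusted p = 0.00039). Dihydroflavonol 4-reductase (LOC107420293), on the way to anthocyanins, fell from 33.7, 31.6 and 28 to 3.05, 4.53 and 4.15 (log2 fold change -2.72), and leucoanthocyanidin reductase (LOC107418854), on the way to catechins, fell as well (log2 fold change -1.75). All 3 were also lower without 7 d replicate a. The regulator C1 (LOC107403286), described as an activator of anthocyanin genes in maize, rose from 1.6, 1.53 and 2.16 to 17.2, 7.32 and 6.48 (log2 fold change 1.92) and was not a DEG without 7 d replicate a (1.52).

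Cell wall genes changed in both directions, 2 higher and 3 lower of 19. Pectate lyase 5 (LOC107418263), an enzyme that cuts pectin, had the largest fall of any described gene, from 12.6, 50.5 and 47.3 to 0.682, 2.69 and 2.85 (log2 fold change -3.49, SE 0.62, limma adjusted p = 0.0011; -4.11 without 0 d replicate a). COBRA (LOC107419027), which orients cellulose deposition in Arabidopsis, fell from 36.8, 57.2 and 53.5 to 16.5, 22.2 and 22.2 (log2 fold change -1.22). Snakin-2 (LOC107418476), a small cysteine-rich peptide, fell from 3.2, 2.63 and 1.72 to 0, 0.0749 and 0, whereas pectinesterase 15 (LOC107429770) rose from 0.919, 1.39 and 1.5 to 4.25, 4.45 and 4.15 (log2 fold change 1.23). None of 11 cell division and chromatin genes passed the limma thresholds. The abundant histone H4 (LOC107433172) among them was at 73.1, 74.6 and 74.6 and 31.2, 44.7 and 43.7 (log2 fold change -0.90, limma adjusted p = 0.00064) and stayed below the fold threshold.

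Other large falls were in genes of unlike function. Aspartic protease in guard cell 2 (LOC107419943) went from 305, 276 and 270.3 to 39.4, 54.8 and 47.2 (log2 fold change -2.58, SE 0.26, limma adjusted p = 3.1e-05). Purple acid phosphatase 17 (LOC107419438), a phosphate-releasing enzyme, went from 8.04, 4.48 and 4.61 to 0.375, 0.298 and 0.271 (log2 fold change -2.31). Further falls were those of tetraketide alpha-pyrone reductase 1 (LOC107419792, -1.91), ABC transporter B family member 13 (LOC107420404, -1.91) and IQ-domain 14 (LOC107417789, -1.82). All 5 remained lower DEGs without 7 d replicate a.

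Pentatricopeptide repeat (PPR) proteins, which bind and process RNA in organelles, held DEGs of 1 direction. Of 94 genes 41 were higher and none lower, beside 4.14% higher among all genes. Their median log2 fold change was 0.98, and 0.96 with 37 higher genes without 7 d replicate a. The PPR gene LOC107429640 was at 2.18, 2.65 and 2.19 at 0 d and 15, 12.9 and 11.5 at 7 d (log2 fold change 2.08, SE 0.23, limma adjusted p = 5.7e-05), and LOC107434337 at 1.93, 2.7 and 2.37 and 14.1, 11.9 and 11.6 (log2 fold change 2.02). The 2 most abundant PPR genes, LOC107424021 and LOC107418262, had log2 fold changes of 1.17 and 0.79, of which the second did not pass. These genes were described from DEGs of the other cultivar, so the share is that of a selected list. In the same fit 32, 62 and 60 of them were higher at 1, 3 and 5 d, beside 4.49%, 7.53% and 9.28% of all genes and with the same 0 d libraries.

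Of 33 genes in the spliceosome list 9 were higher and none lower, beside 4.14% and 4.88% of all genes. Among described genes, from ‘HR’ like this list, 262 of 1154 were higher. With 1 library left out, 6 to 9 genes of the spliceosome list were higher. Among the 9 higher with all libraries are 2 HSP70 genes described above, LOC107406481 and LOC107405906. These 2 are among 3 of the 9 that stand also in the list for protein processing in the endoplasmic reticulum. Of 12 genes for ribosome biogenesis 4 were higher and none lower, with 2 to 4 when 1 library was left out. Ribosomal protein genes themselves gave 3 higher and 2 lower of 21, with chloroplast ribosomal protein S9 (LOC107420281) down from 161, 201 and 207 to 76.2, 106 and 89.5 (log2 fold change -1.06) and not a DEG without 7 d replicate a (-0.95).

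**Figure D4:**
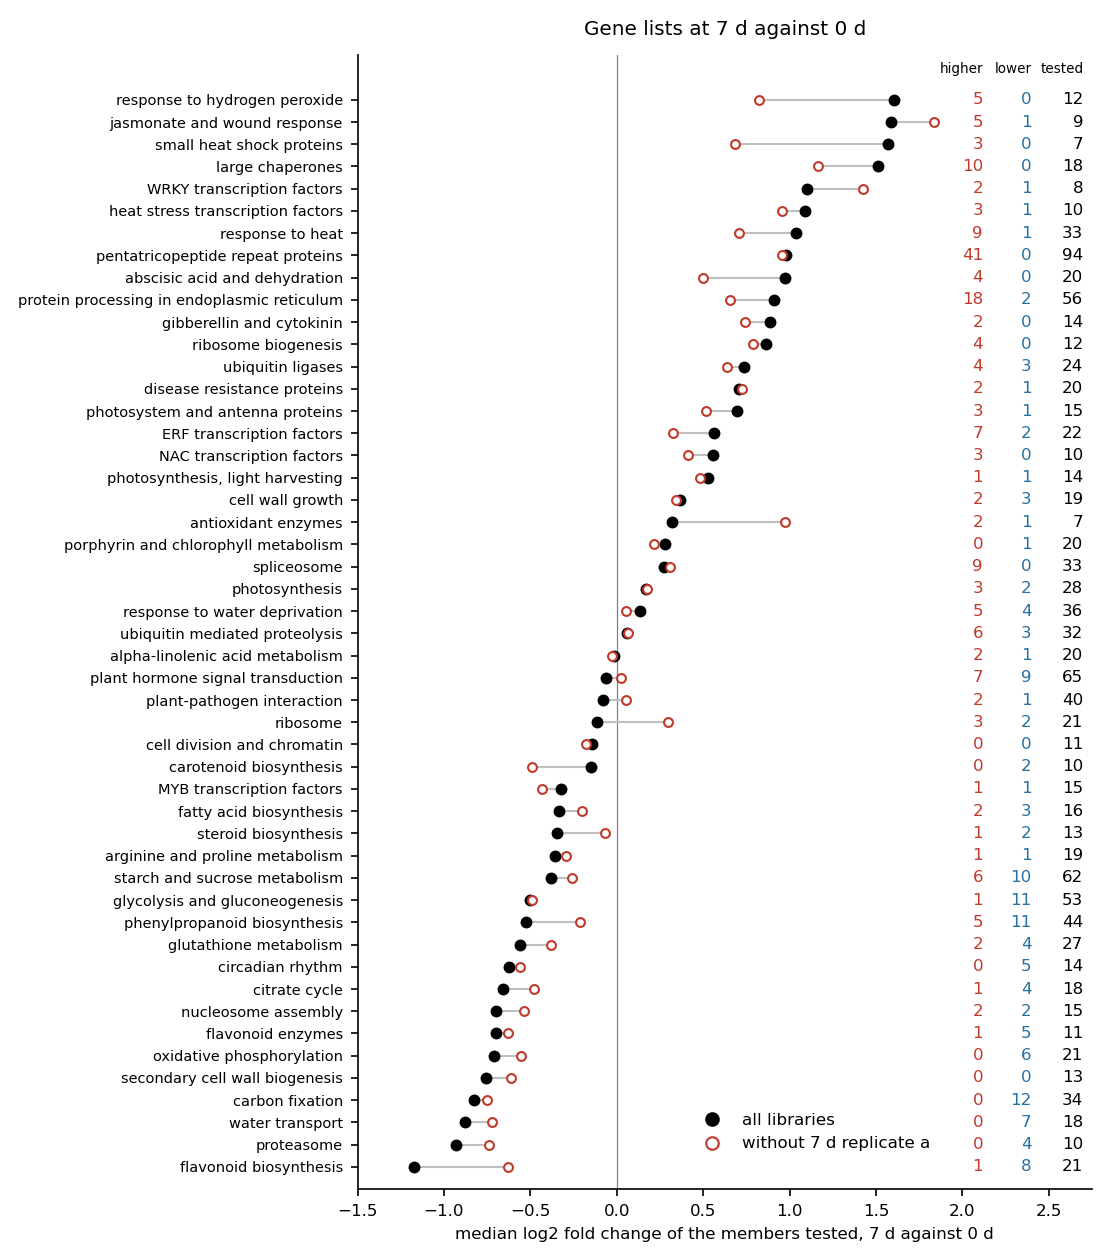
Median log2 fold change at 7 d against 0 d (horizontal axis) of the members tested in each of the 49 gene lists, with all libraries (filled) and without 7 d replicate a (open), beside the number of members higher, lower and tested. Pentatricopeptide repeat genes hold 41 higher DEGs and have medians of 0.98 and 0.96, and carbon fixation holds 12 lower DEGs.

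The remaining lists gave mixed counts. Phenylpropanoid biosynthesis had 5 higher and 11 lower of 44, glutathione metabolism 2 and 4 of 27 (1 and 2 without 7 d replicate a), and ubiquitin mediated proteolysis 6 and 3 of 32. The phenylpropanoid list shares 2 higher and 4 lower genes with that for starch and sucrose. Photosynthesis had 3 and 2 of 28, and light harvesting 1 and 1 of 14. Secondary cell wall biogenesis had none of 13, the 11 described flavonoid enzymes and regulators 1 and 5, and the lists for porphyrin, carotenoid, arginine and proline, alpha-linolenic acid, fatty acid and steroid metabolism, plant-pathogen interaction and nucleosome assembly 1 to 5 DEGs each. The 5 lower genes among flavonoid enzymes and regulators include 4 counted in the flavonoid biosynthesis list. The sign of the median was the same without 7 d replicate a in 46 of the 49 lists.

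Of the 90 named genes that were DEGs against 0 d, 61 were called in all 6 fits that left out 1 library. Leaving out 1 of the 0 d libraries ended 17 to 19 of the calls, leaving out 7 d replicate a 16, b 9 and c 5. Apart from genes noted above, calls were lost without 1 or more of the 0 d libraries in HSF B-2b, DREB2A, TIFY 9, NAC100, receptor-like protein 12, the chloroplastic small HSP LOC107404752, oxygen-evolving enhancer protein 3-2, glutamine synthetase, purple acid phosphatase 17 and LOC107431012.

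Some of the largest changes were in genes with no description among those read here. gene15749 was at 0.653, 2.07 and 2.21 at 0 d and 58.1, 128 and 112 at 7 d (log2 fold change 5.23), and gene8988 at 0.855, 3.6 and 3 and 142, 116 and 106 (5.23). gene4065 fell from 214, 317 and 316 to 12.8, 4.15 and 2.41 (-5.48), the largest fall in these data, and gene20303 from 67.4, 91.4 and 89.9 to 0.483, 2.15 and 1.02 (-5.30). These 4 genes were chosen by the size of their change among DEGs whose groups did not overlap, so their separation is no separate result. Going from below an FPKM of 1 in every 0 d library to 10 or more in every 7 d library was seen in 10 genes, and the reverse in 1.

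Between 5 d and 7 d, 136 genes (0.683%) were called by the same limma test, 77 higher (0.386%) and 59 lower (0.296%) at 7 d. Under median-of-ratios scaling it was 112 higher and 44 lower. Without 7 d replicate a 966 were called, and without 7 d replicate b or c, or 5 d replicate b or c, 8 to 12. The genes named here were chosen after their values were seen, except where they belong to a group above. In each comparison with the control, 2027 (10.2%), 2775 (13.9%) and 3601 (18.1%) genes were called at 1, 3 and 5 d and 1796 at 7 d, all against the same 0 d libraries.

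Photosystem genes were among those higher at 7 d than at 5 d, 4 of the 15 tested. CP26, a minor antenna protein of photosystem II, was at 1007, 725 and 768 at 5 d and 2002, 1949 and 1792 at 7 d (LOC107424276, log2 difference 1.21, limma adjusted p = 0.0085). CP24 (LOC107427642) was at 763, 840.3 and 874 and 1623, 2002 and 1829 (1.13), and photosystem I subunit III (LOC107418592) at 327, 344 and 335 and 692, 742 and 688 (1.07). At 0 d their means were 1321, 1129 and 799, and none of the 3 differed from 0 d at 7 d by the thresholds. A second CP26 gene (LOC107405503), with nearly the same values and possibly shared reads, had a difference of 1.24.

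Among regulators, WRKY41 was higher at 7 d than at 5 d (2.53), as were DOF1.2 (LOC107421684), a zinc finger factor, at 0.542, 1.22 and 1.11 and 10.6, 4.93 and 5.02 (1.95), and the 1-aminocyclopropane-1-carboxylate synthase LOC107430205 (1.73). Lower at 7 d were NAC55 (LOC107422350), from 9.2, 5.5 and 7.05 to 2.06, 1.56 and 1.34 (-1.62), and nuclear factor Y subunit A-1 (LOC107432355, -2.10). Of the metabolic genes, an L-asparaginase (LOC107420012), which frees ammonium from asparagine, was at 41.8, 19.4 and 21.8 at 5 d and 170.4, 686 and 643 at 7 d (log2 difference 3.97, limma adjusted p = 0.0044). Its 0 d values were 796, 692 and 677, so replicates b and c at 7 d lay near them and replicate a between. The methanol O-anthraniloyltransferase genes LOC107431010 and LOC107431012 were higher by 2.71 and 1.61, trans-resveratrol di-O-methyltransferase (LOC107419061) by 1.78, and homocysteine S-methyltransferase 3 (LOC107423145) and a LON domain RING finger gene (LOC107419194) were lower (-2.18 and -1.48).

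**Figure D5:**
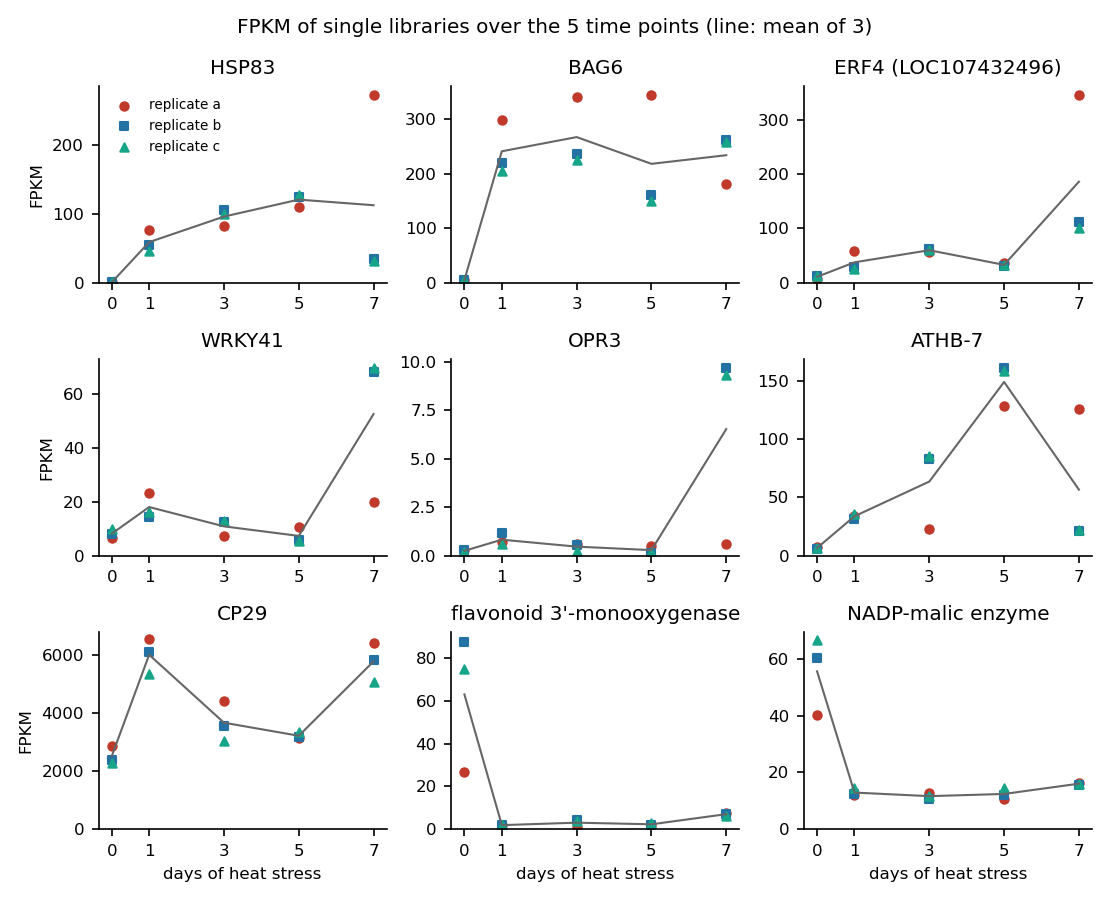
FPKM (vertical axes, one scale per gene) over 0, 1, 3, 5 and 7 d of heat stress for 9 genes, with each library as a point coloured by replicate and the mean of 3 as a line. At 7 d replicate a is the highest in HSP83, ERF4 and ATHB-7 and the lowest in WRKY41 and OPR3, where it reached 0.636, while the replicates of NADP-malic enzyme lie together.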

How the data were processed

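The authors deposited 1 table of FPKM values for 32876 genes (29293 annotated and 3583 newly discovered) in 15 ‘HS’ leaf libraries. According to the paper the authors aligned reads with Bowtie 2 and TopHat 2 and used Cufflinks for transcript assembly, and the tool that computed FPKM was not given in the sources used here. The labels name Trimmomatic 0.36 and FastQC, and the genome build was not given in the sources used here. The labels and the paper differ on the RNA kit and the sequencer. FPKM holds no counts, so log2(FPKM + 1) was tested with limma 3.58.1 in R 4.3.3 in place of the count test of the paper, on the 19925 genes that reached an FPKM of 1 in 3 libraries, with time point as the only factor, an intensity trend and 10 residual degrees of freedom. P-values were adjusted by Benjamini-Hochberg over all genes tested. On simulated data for 7 d against 0 d over 19925 genes, 181 of 200 genes changed 4-fold were called. The changed genes were drawn from those of higher FPKM only, and errors were independent between libraries. The share called therefore does not hold for low genes or for a library that stands apart. Absolute depth is unknown, and relative depth was read from steps between low FPKM values.

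Groups came from the labelled days of heat stress. LOC names and descriptions came from the study’s gene tables (1244 genes, 1192 of them from tables of the other cultivar only). As read here, these held a part of the DEGs reported in the paper. The members and lists were chosen with earlier results of these data known. Genes named included the 12 largest described rises and falls and the 2 largest of each without description, among DEGs whose groups did not overlap. From each list came up to 4 called and the 2 most abundant members where described. All measured members of the lists of small HSPs, chaperones and HSFs were named, with the 3 most abundant described genes. Some of these are given by counts only, genes described as uncharacterized or hypothetical were not named, and undescribed list members were counted. Gene order came from the RefSeq gene table of another assembly, in which 1017 of the LOC names were found. The replicate letters were checked for pairing by correlating deviations from the group means. Alternatives were another pseudocount, no filter, 2 other scalings, a fit of the 6 libraries, no trend, replicate blocks, other thresholds and leaving out libraries. Python 3.11.15 with pandas 2.3.3, numpy 2.4.6, scipy 1.17.1 and matplotlib 3.10.9 was used for summaries, exact tests and figures.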

Additional observations from a re-analysis of the deposited data

Results flagged for a closer look

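In the genes below the change from the control treatment at 7 d differed from that at 5 d, by the limma test of 7 d against 5 d in the same fit (adjusted p of 0.01 or less and 2-fold or more). The 136 calls of this test became 8 to 12 without replicate b or c of 7 d or of 5 d. Which of the genes below stay called then is not given here. Higher at 7 d than at 5 d on the log2 scale were the photosystem genes LOC107424276 (CP26, 1.21), LOC107405503 (CP26, 1.24), LOC107427642 (CP24, 1.13) and LOC107418592 (photosystem I subunit III, 1.07). Among regulators and hormone genes the differences were 2.53 for LOC107430000 (WRKY41), 1.95 for LOC107421684 (DOF1.2) and 1.73 for LOC107430205 (1-aminocyclopropane-1-carboxylate synthase). In metabolism they were 3.97 for LOC107420012 (L-asparaginase), 2.71 for LOC107431010 and 1.61 for LOC107431012 (methanol O-anthraniloyltransferase), and 1.78 for LOC107419061 (trans-resveratrol di-O-methyltransferase). Lower at 7 d were LOC107419194 (LON domain RING finger, -1.48), LOC107422350 (NAC55, -1.62), LOC107423145 (homocysteine S-methyltransferase 3, -2.18) and LOC107432355 (nuclear factor Y subunit A-1, -2.10).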

How the results depend on the processing

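The count of 1796 DEGs at 7 d against 0 d was 1693 to 2355 under another pseudocount, no filter, 2 other scalings, no trend, a block of replicate a against b and c, and an adjusted p of 0.05. It was 1114 in a fit of the 6 libraries alone and 3796 with no minimum fold. Leaving out 1 library gave 1349 to 1769, and leaving out a letter at every time point 24 to 2366. Letters were not taken as pairs, since 0 d and 7 d libraries of the same letter correlated at 0.0859 to 0.121 in their deviations, although each 7 d library correlated best with its own letter. With the replicate block limma called 1764 genes in 15 libraries and 0 in the 6 libraries, where 7855 genes had an unadjusted p of 0.05 or less against 8624 in the fit reported. The share of higher genes among those called was 45.9%, and passed 50% with a pseudocount of 0.1 (54.6%), without 0 d replicate c (50.7%), without 7 d replicate a (54.7%) and without any 1 letter at every time point (52.5% to 58.3%). The 136 genes at 7 d against 5 d, whose alternatives were chosen after seeing the data, became 74 with no filter, 10 in the fit of 6 libraries, 624 at an adjusted p of 0.05 and 214 with no minimum fold. The replicate block gave 98 in 15 libraries and 0 in 6, where 3714 genes had an unadjusted p of 0.05 or less, and leave-outs gave 0 to 2057. Without replicate b limma called 0, with 1843 genes at an unadjusted p of 0.05 or less. Of the 121 genes named and tested, 2 changed direction, neither of them a DEG, in 3 of 2393 values under alternatives. With libraries left out, LOC107417637 ranged from -0.091 to 1.96, with -0.091 without replicate a and -0.02 without 7 d replicate a, and LOC107435148 from -0.088 without replicate a to 1.23 on the log2 scale. The cause was not tested. Depth limits what can be said of genes below an FPKM of 1, which the pseudocount compresses.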
